A study of Drosophila melanogaster with 4 samples.

Results

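The regions described here are the places on the Drosophila melanogaster X chromosome where NURF301 was enriched in late embryos. They are all entries on the X in 3 deposited lists of enriched regions, 982 in ChIP replicate 1, 1119 in ChIP replicate 2 and 1513 in a combined list of the replicate set, 3614 entries in all. These came from 5576, 6320 and 8224 regions over all sequences. A region of the combined list entered the main set when both replicate lists had a region sharing at least 1 bp with it. The main set held 882 regions on the X out of 5069 over all sequences. Membership was decided by position and overlap, without regard to the score beyond the lists' own threshold.

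Binding was mapped by ChIP-seq, in which DNA cross-linked to a protein is recovered with an antibody, here Q2602 against NURF301, and sequenced. The 2 ChIP samples and the 2 input samples, which are unselected chromatin, were all prepared from Oregon-R embryos, a wild type strain, aged 14 to 16 h. The inputs have no list of their own, and each served one ChIP replicate, per the labels. Nothing in the labels states that the replicates were separate embryo collections, and their spread may therefore be technical. The sex of the embryos is not given. The study names no treatment, mutant or second stage, so the comparisons below are between places on the X, between the replicates, and between the X and the arms 2L, 3L and 3R.

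NURF is a chromatin remodelling complex that moves nucleosomes along DNA. NURF301, the product of the gene E(bx), is its large subunit and a scaffold for the ATPase ISWI, and it carries modules that read histone modifications. In Drosophila, the single X of males is transcribed at a raised level by dosage compensation, a process that depends on the MSL complex. In larvae lacking ISWI or NURF301 the polytene X of males has a disordered, bloated structure. This is background from genetics, and the lists hold no readout of chromosome structure or expression.

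Positions are on FlyBase r5, counted from 1, on an X of 22422827 bp. Each region has a score, which was read from the values as the log2 of a ratio of whole numbers multiplied by a constant for the list. The ratio is taken as ChIP reads over input reads, which the files do not state. The constant of the combined list was 0.908, and the constants of replicates 1 and 2 were 0.885 and 0.927. Whole numbers are printed in lowest terms and before the constant, so 929 to 253 stands for these numbers or a multiple of them. Total library depth is unknown from the lists.

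NURF301 was enriched along the whole length of the X. Main regions numbered 39.3 per Mb and covered 2.70 Mb, or 12.0% of the chromosome. Replicate 1 had 43.8 regions per Mb and replicate 2 had 49.9, a mean of 46.8 ± 4.32 (SD, n = 2). The replicate lists covered 10.4% and 12.9% of the X. The combined list had 67.5 regions per Mb and covered 16.6%. The first main region began at 19246 and the last ended 6325 bp before the end of the sequence, so both ends of the assembled arm carried regions.

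A typical region of the X was a little over 2 kb wide and had a ratio below 2. The median width was 2181.5 bp in replicate 1 and 2288 bp in replicate 2 (mean 2235 ± 75.3, SD, n = 2), and 2668 bp in the main set. The quartiles of the main set were 2285.5 and 3436.5 bp, and the extremes were 1597 and 11879 bp. Scores had a median of 0.76 in replicate 1, and of 0.79 in replicate 2 (mean 0.78 ± 0.020, SD, n = 2). In the main set it was 0.78, a ratio of 1.72, with quartiles of 0.60 and 0.98 and extremes of 0.23 and 1.74. Stronger regions were also wider. Spearman's rho of score and width was 0.79 over the regions of replicate 1, 0.77 over those of replicate 2 and 0.50 over the main set. Regions of a list share its libraries, so these values are descriptions.

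The map along the X was then read in windows of 500 kb, numbered from the left, telomeric end. There were 44 full windows and a last one of 422827 bp. No window was without main regions. A full window held between 7 and 33 of them, with a median of 19, and the variance of these counts was 1.90 times their mean. The same ratio was 1.87 in replicate 1 and 2.38 in replicate 2. The share of a full window that was covered ranged from 4.88% to 23.3%, with a median of 11.3%.

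**Figure D1:**
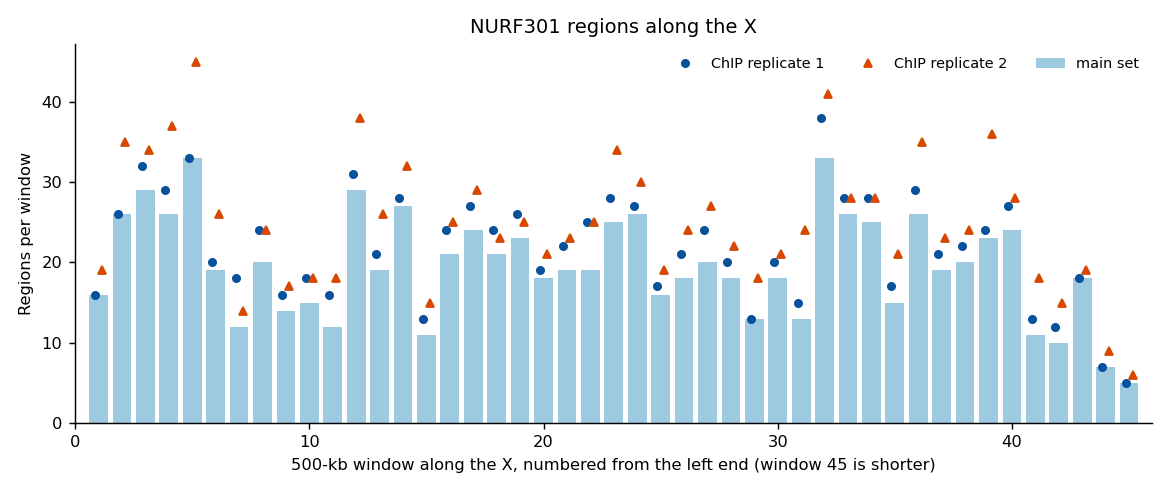
Number of NURF301 regions (vertical axis) in each 500-kb window of the X, numbered from the left end (horizontal axis). Bars give the main set, circles ChIP replicate 1 and triangles ChIP replicate 2; windows 5 and 32 hold 33 main regions each, and the last windows hold the fewest.

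The densest stretches lay in 2 separate parts of the chromosome. Window 5, from 2.0 to 2.5 Mb, and window 32, from 15.5 to 16.0 Mb, held 33 main regions each. The replicates gave 33 and 45 regions in window 5, and 38 and 41 in window 32. Thus replicate 2 listed 12 more in window 5 and 3 more in window 32. Windows 3 and 12 followed with 29 main regions each. Window 32 also had the highest covered share of the X, 23.3%, against 18.1% in window 5. The median width was 3045 bp in window 32 and 2501 bp in window 5. Its median score was 0.88 and that of window 5 was 0.65.

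The emptiest full windows were at the centromeric end. Window 44, from 21.5 to 22.0 Mb, held 7 main regions, with 7 in replicate 1 and 9 in replicate 2. Window 42, from 20.5 to 21.0 Mb, held 10, with 12 and 15 in the replicates. Windows 15 and 41 held 11 each. The thin windows were low in both replicates. Their median scores were 0.80 in window 44, 0.80 in window 42, 0.95 in window 41 and 0.70 in window 15, so they lay on both sides of the median of 0.78 over the full windows.

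Replicates ordered the windows alike. Over the 44 full windows, Pearson's r of the replicate counts was 0.91 and Spearman's rho 0.92. These values are descriptions over windows of 1 chromosome in the same libraries. Replicate 2 listed more regions in 36 windows, replicate 1 in 3, and they were equal in 5. Neighbouring windows were only loosely alike, with a rho of 0.15 between the main count of a window and that of the next.

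In blocks of 5 Mb, density was nearly even until the last block. From left to right, replicate 1 had 46.4, 45.8, 43.4 and 49.8 regions per Mb in the first 4 blocks, and replicate 2 had 53.8, 50.4, 48.6 and 57.6. Both replicates ranked these 4 blocks alike, with 15 to 20 Mb highest, then 0 to 5, 5 to 10 and 10 to 15 Mb. Replicate 2 was higher than replicate 1 in each of these blocks. The ranges of the replicates overlapped between blocks, except that both values of 10 to 15 Mb lay below both of 15 to 20 Mb. From 20 Mb to the end there were 22.7 in replicate 1 and 27.7 in replicate 2, below either replicate in every other block. The final 2.5 Mb of the X had 20.8 main regions per Mb against 41.7 on the rest of the chromosome, a ratio of 0.499, and the ratio was 0.482 in replicate 1 and 0.516 in replicate 2. The same ratio, of the centromeric 2.5 Mb to the rest of the arm, was 0.639 on 2L, 0.432 on 3L and 1.11 on 3R. A thinner centromeric end was thus shared with 2L and 3L, and was not tested. The share of sequence to which reads can be mapped is not in the lists, and its part in the lower density was not tested.

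Enrichment was distributed differently from density. The median score of a full window ranged from 0.53 to 0.97, and rho between the main count and the median score of a window was 0.012 over the 44 windows. Between median width and median score it was 0.60. The highest medians were in window 13 (6.0 to 6.5 Mb) at 0.97, window 41 (20.0 to 20.5 Mb) at 0.95 and window 10 (4.5 to 5.0 Mb) at 0.94. In window 13 the medians of replicates 1 and 2 were 0.96 and 0.98. They were 0.96 and 0.82 in window 41, so its place was less alike in the replicates, and 0.88 and 0.92 in window 10. The lowest were in window 25 (12.0 to 12.5 Mb) at 0.53, window 39 (19.0 to 19.5 Mb) at 0.61 and window 26, next to window 25, at 0.61. In window 25 the replicates gave 0.65 and 0.61, and in window 39 they gave 0.72 and 0.65. Window 39 nevertheless held the fourth strongest main region of the X.

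**Figure D2:**
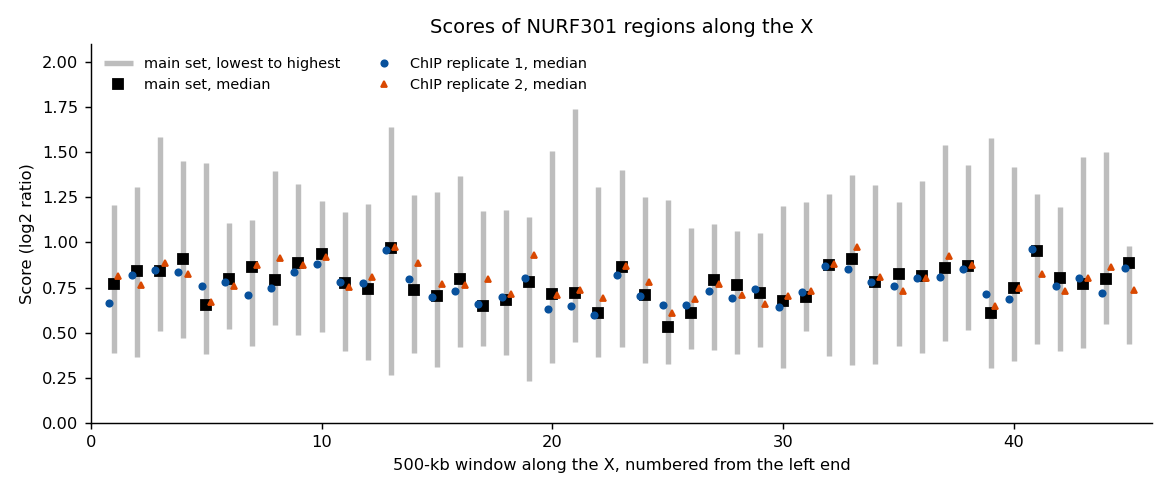
Scores of NURF301 regions as log2 ratios (vertical axis) in each 500-kb window of the X (horizontal axis). Grey lines run from the lowest to the highest main region and squares mark the main-set median; circles and triangles are the medians of the replicate lists, which lie between 0.60 and 0.98 in the full windows.

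By blocks of 5 Mb the middle of the X was lower. The mean of the replicate medians was 0.81 ± 0.020 from 0 to 5 Mb, 0.79 ± 0.043 from 5 to 10 Mb, 0.70 ± 0.027 from 10 to 15 Mb, 0.80 ± 0.0069 from 15 to 20 Mb and 0.82 ± 0.0020 beyond (SD, n = 2 each). In the block from 10 to 15 Mb both replicates, at 0.68 and 0.72, lay below both replicates of every other block. The order of the replicates' window medians was less alike than that of their counts, with a rho of 0.70 and an r of 0.67 over the 44 windows.

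The strongest 10% of the main set, 89 regions with scores of 1.17 or more, was scattered. It occurred in 37 of the 45 windows, with at most 6 in a window, and successive members lay a median of 164654 bp apart. From left to right, the blocks of 5 Mb held 21, 17, 14, 30 and 7 of them. The same blocks held 210, 205, 192, 224 and 51 main regions in all. The 89 strongest had a median width of 3267 bp, against 2617 bp for the other main regions. At the bound of this set, the weakest member and the strongest region outside it both had a score of 1.17.

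The strongest main region of the X lay near its middle, at X:10365678-10370032. Its score was 1.74, a ratio of 3.33 that comes from 929 to 253 multiplied by the constant, and the replicates gave 1.60 and 1.88 (mean 1.74 ± 0.20, SD, n = 2). It ranked 1 on the X in each replicate. The next, X:6425836-6429342, scored 1.64, ranked 2 in each replicate and averaged 1.67 ± 0.13 (SD, n = 2). These top places were the same in both lists, and the other 8 of the 10 strongest ranked between 3 and 17 in the replicates.

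The third was X:1208460-1211570, with a score of 1.58 and replicate values of 1.53 and 1.67. X:19413720-19417936 also scored 1.58, with replicate values of 1.57 and 1.72. X:18263734-18266698 scored 1.54, with 1.54 in replicate 1 and 1.64 in replicate 2. Each of these lay within the first 10 ranks of both replicate lists on the X.

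X:9501622-9504278 scored 1.51 and had the closest replicate values of the 10 strongest sites, 1.54 and 1.57 (SD 0.018, n = 2). It was also the narrowest of the 10, at 2657 bp. X:21855842-21859384 had 1.49 in replicate 1 and 1.57 in replicate 2 and lay in window 44, the emptiest full window. X:18131720-18134628 had 1.41 and 1.62 in the replicates. The last of the 10 were X:21193372-21196634 at 1.47 and X:18029860-18033470 at 1.46.

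Of the 10 strongest sites, each was a single region in both replicates. They fell into 8 windows, and 3 of them shared window 37. Of these 10, 2 belonged to a cluster as defined below, beside 29.0% of all main regions of the X. Their widths were 2657 to 4355 bp, and none was among the 5 widest.

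The widest domains were another set of places. The widest, X:9048548-9060426, spanned 11879 bp with a score of 0.90 and was split into 2 regions in replicate 1, where it was a single region of 11683 bp in replicate 2. The second, X:510080-520696, spanned 10617 bp with a score of 0.71 and was broken into 2 and 3 regions in the replicates. Both were moderate in score, with ranks from 300 to 574 in the replicate lists.

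The next widest combined width with strong enrichment. X:7823692-7833386 (9695 bp) scored 1.27 and X:7949528-7958660 (9133 bp) scored 1.37, both in window 16 and each a single region in both replicates. Their replicate means were 1.31 ± 0.12 and 1.37 ± 0.11 (SD, n = 2 each). X:19385054-19393732 (8679 bp) scored 1.26 and was split into 2 regions in replicate 1. This domain lay in window 39, as did the fourth strongest site.

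Splitting touched few regions. Of the 882 main regions, 839 (95.1%) corresponded to exactly 1 region in each replicate list. The other 43 were split in at least one replicate, 32 in replicate 1 and 22 in replicate 2, with 11 in both. Split regions had a median width of 5291 bp, against 2635 bp for regions that were single in both.

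Spacing was then measured as the number of bases between the end of a main region and the start of the next. Over 881 gaps the median was 9535 bp, with quartiles of 3097 and 24917 bp. Gaps of at most 5 kb made up 35.1% (309 gaps). At the other end, 114 gaps exceeded 50 kb and together held 48.9% of the X. The median gap was 9666 bp in replicate 1 and 7160 bp in replicate 2. Some neighbours almost touched, with 15 gaps under 100 bp, and merging such neighbours is among the alternatives in the closing section.

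**Figure D3:**
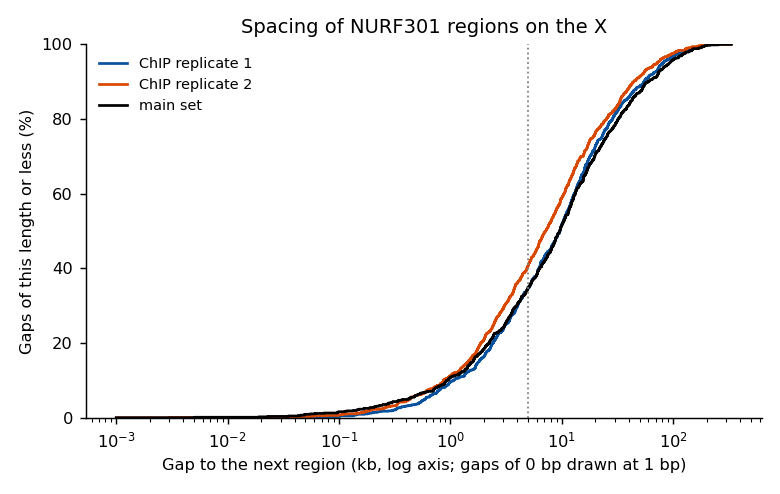
Cumulative share of gaps between neighbouring NURF301 regions of the X (vertical axis, %) against gap length (horizontal axis, kb, log scale) in each replicate and the main set. The dotted line marks 5 kb, the longest gap inside a cluster; the curve of replicate 2, with more regions, lies to the left over most of the range.

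Runs of 3 or more main regions with every gap at most 5 kb were called clusters. There were 74 clusters with 256 regions, 29.0% of the main set, spread over 35 windows. Most were small, 51 with 3 regions, 17 with 4 and 6 with 5 or more, and the median span was 14988 bp. Together they spanned 1.20 Mb, or 5.33% of the X. Window 32, already among the densest, held 6 clusters, more than any other window.

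The largest cluster, at X:21208220-21247380, had 7 regions in 39161 bp, and 7 in each replicate list. From left to right its regions scored 1.03, 1.05, 0.99, 1.01, 0.83, 0.64 and 0.53, so enrichment was lower on the centromeric side. Another cluster, at X:21474854-21508266 across the border of windows 43 and 44, had 6 regions and ran from 1.17 at its left end to 0.57 at its right end, with 0.50 as its lowest. In both clusters the strongest scores thus lay in the left part.

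A further cluster of 6, at X:510080-554594, began with the 10617-bp domain and ended with a 7349-bp region that scored 1.31. It spanned 44515 bp, the longest span of the 74. At X:11462838-11495606, 6 main regions filled 71.1% of 32769 bp, and each replicate listed 8 regions there. The tightest of the 5 largest clusters, at X:12790222-12805178, packed 5 regions into 14957 bp with 83.8% covered and a median score of 0.67. Another cluster of 5 regions, X:15737218-15766220, spanned 29003 bp. Ties in size were settled by the shorter span, so tightness was part of this choice.

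In the main set, regions inside clusters were about as strong as the others. Their median score was 0.78, against 0.78 outside, and their median width 2732 bp, against 2643 bp. In both replicate lists the median score was higher in clusters, 0.78 against 0.75 outside in replicate 1 and 0.82 against 0.77 in replicate 2. Of the strongest 10%, 21 of 89 (23.6%) lay in clusters, beside 29.0% of the main set. The 95 main regions with more than 20 kb free on both sides had a median score of 0.76 and a median width of 2451 bp. Such isolated regions had median scores of 0.71 in replicate 1 and 0.67 in replicate 2.

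The longest gap of the X, 335.3 kb at X:21508267-21843573, began directly at the end of the cluster across windows 43 and 44. Neither replicate had a region in it, and the combined list had 2, of which the stronger scored 3.03. The second, 255.4 kb at X:14217989-14473417, likewise held 0 regions in both replicates and 3 in the combined list, none scoring above 0.44. On the X, 38 gaps were longer than 100 kb, against 40 on 2L, 38 on 3L and 38 on 3R. The arms differ in length, with 22.4 Mb on the X and 23.0, 24.5 and 27.9 Mb on 2L, 3L and 3R. Gaps over 50 kb held 48.9% of the X, 47.0% of 2L, 46.7% of 3L and 39.9% of 3R.

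The other long gaps were less empty. The third, X:7319337-7533741 (214.4 kb), held 1 region of replicate 1, 3 of replicate 2 and 8 of the combined list, which reached 0.41 at most. The fourth, X:4981567-5182707 (201.1 kb), held 1 region of replicate 1, 0 of replicate 2 and 3 of the combined list, and was bounded on the left by a strong region with a score of 1.23. The fifth, X:9251791-9443935 (192.1 kb), held 1 region of each replicate and 6 of the combined list, which reached 0.92. A long gap in the main set can thus contain regions that a single list called.

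The next comparison was between the replicates. Of the 982 X regions in replicate 1, 910 were also found in replicate 2, which is 92.7% (Wilson 95% bounds 90.9% and 94.1%), beside 94.1% over all sequences. Conversely, 891 of 1119 in replicate 2 were found in replicate 1, which is 79.6% (77.2% to 81.9%), beside 81.2% over all sequences. The intervals contain the values over all sequences for both lists, and they treat regions as independent, so they cover counting error only. On 2L, 3L and 3R the shares were 94.3%, 95.9% and 93.7% for replicate 1. For replicate 2 they were 81.9%, 82.7% and 80.4%. Both shares were thus lowest on the X, by margins that were not tested. Almost every replicate region was in the combined list, 978 of 982 and 1118 of 1119.

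Agreement depended on strength. In the highest quartile of scores, 246 of 246 regions of replicate 1 and 279 of 280 of replicate 2 were shared. In the lowest quartile, 206 of 246 (83.7%) and 131 of 280 (46.8%, Wilson interval 41.0% to 52.6%) were shared. The strongest unshared region scored 0.81 in replicate 1 and 1.05 in replicate 2. Unshared regions had a median score of 0.60, against 0.79 for shared ones, in replicate 1, and 0.54, against 0.88, in replicate 2.

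Along the X, agreement varied by place. In 8 of the 44 full windows every region of replicate 1 was shared, and the lowest share was 72.0%, in window 22. For replicate 2 the share ranged from 54.2%, in window 31 (15.0 to 15.5 Mb), to 94.7%, in window 43. Window 31, with 24 regions in replicate 2 and 15 in replicate 1, lies beside window 32, where 38 and 41 were listed and 82.9% of the regions of replicate 2 were shared.

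Paired regions had nearly the same place and a similar score. Over 887 reciprocal best pairs, rho of the scores was 0.80 and Pearson's r 0.82, and rho of the widths was 0.77. On 2L, 3L and 3R, rho of the scores was 0.82, 0.82 and 0.84. Starts differed by a median of 117 bp and ends by 120 bp. Replicate 2 was higher in 608 pairs (68.5%), with a median log2 difference of 0.090, or 6.44%, and its regions exceeded their partners in width by 193 bp at the median. Around this shift, the 5% and 95% points of the differences were -0.27 and 0.27. The median shift of a full window ranged from -0.054 to 0.20 and was below 0 in 3 windows, none of them adjacent.

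**Figure D4:**
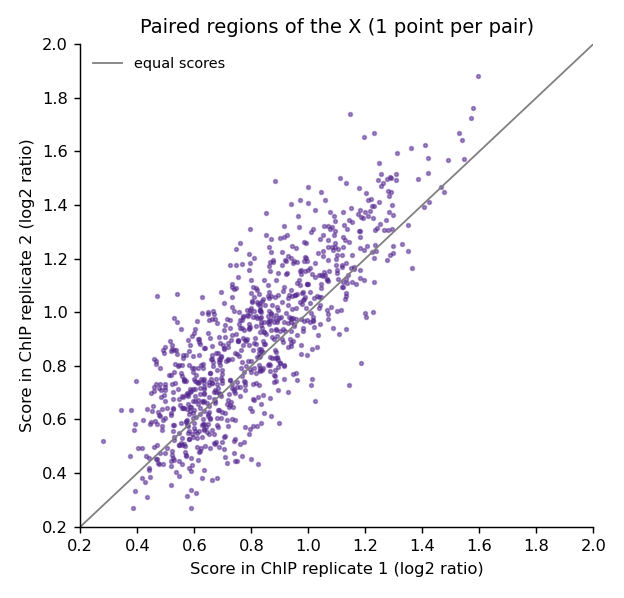
Score of each of the 887 paired regions of the X in ChIP replicate 2 (vertical axis) against ChIP replicate 1 (horizontal axis), both as log2 ratios, with the line of equal scores. Replicate 2 is higher in 608 pairs, and rho is 0.80.

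The largest differences between the replicates, taken after removing the median shift, were moderate. X:18543336-18545602 had 1.49 in replicate 2 and 0.88 in replicate 1 (mean 1.19 ± 0.43, SD, n = 2), a difference of 0.61. X:18676356-18679206, in the same window, had 1.74 and 1.15 in replicates 2 and 1. X:949646-951898 had 1.06 and 0.47, X:10814880-10817212 had 1.07 and 0.54, and X:2218794-2221040 had 1.37 and 0.85.

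In the other direction, X:20986998-20989220 had 0.73 in replicate 2 and 1.14 in replicate 1, a difference of -0.41. X:19991206-19993298 had 0.43 and 0.82, X:14056762-14059050 had 0.81 and 1.18, X:19917264-19919824 differed by -0.35, and X:18926952-18929026 had 0.45 and 0.80. These 10 pairs were picked for their difference, so the values are a description.

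Not all of the combined list was supported by the replicate lists. Of its 1513 X regions, 882 (58.3%, Wilson interval 55.8% to 60.8%) overlapped both, beside 61.6% over all sequences. This overlap is the membership rule of the main set. The share was 65.0% on 2L, 64.0% on 3L and 61.9% on 3R, each above the interval of the X. That interval covers counting error only, and the difference was not tested. Another 66 (4.36%) overlapped replicate 1 alone and 220 (14.5%) replicate 2 alone. The remaining 345 (22.8%) overlapped neither, beside 20.9% over all sequences. These had a median width of 1267 bp and a median score of 0.41, and 187 of them (54.2%) were narrower than 1303 bp, the narrowest X region of replicate 1.

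The only scores of the combined list on the X above those of every main region were 2 of this last class. X:21822712-21823712 scored 3.03, from 9 to 1 in lowest terms, and lay inside the longest gap. X:14172416-14174078 scored 2.11, from 19 to 4. The next of the class were below the 10 strongest main regions. X:5375018-5376018, X:13323480-13324504 and X:3623306-3624340 scored 1.40, 1.36 and 1.14, from 29 to 10, 31 to 11 and 46 to 19. The denominators of these 5 were at most 19. Over the whole class the median denominator in lowest terms was 133, and 37 of 345 were under 20, against a median of 361 and 24 of 882 under 20 in the main set.

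The median score of X regions was above those of 2L, 3L and 3R in each list. In replicate 1 the median score was 0.76 on the X, against 0.66 on 2L, 0.68 on 3L and 0.68 on 3R. In replicate 2 it was 0.79 on the X, against 0.69, 0.71 and 0.70 on these arms. The difference from each arm was thus 0.081 to 0.11 in replicate 1 and 0.080 to 0.10 in replicate 2. In the whole combined list it was smaller, 0.033 to 0.047. The 90% point of the scores was also highest on the X in both replicates, for instance 1.13 against 1.03, 1.06 and 1.06 in replicate 1. The single highest score was not. It was 1.60 on the X, against 1.67, 1.76 and 1.70, in replicate 1, and 1.88, against 1.74, 2.21 and 1.92, in replicate 2. The density of regions did not set the X apart, with 46.8 ± 4.32 per Mb against 45.9 ± 3.78 on 2L, 46.1 ± 4.06 on 3L and 50.2 ± 4.66 on 3R (SD, n = 2 each). Within each replicate list the X was above 2L and 3L and below 3R. The order was the same in the combined list, with 67.5 per Mb on the X against 60.1, 62.7 and 68.7. A raised ratio on the X and a chromosome-wide offset between the ChIP and input libraries cannot be told apart from these lists. No test was made, since the X is 1 chromosome and there were 2 replicates.

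Very wide regions took a larger share on the X. In replicate 1, 40 of 982 X regions (4.07%) were 4.5 kb or wider, against 1.51% on 2L, 1.79% on 3L and 2.22% on 3R. In replicate 2 there were 72 of 1119 (6.43%), against 4.21%, 3.33% and 3.89%. In the main set there were 95 of 882 (10.8%), against 7.79%, 7.21% and 8.00%. The X was highest in both replicates and the main set. Median widths differed less, with 2181.5 bp on the X and 2139, 2181 and 2175 bp on the other arms in replicate 1. The X median was 2288 bp, against 2233, 2249 and 2266.5 bp, in replicate 2. In the main set it was 2668 bp, against 2575, 2565 and 2564 bp.

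**Figure D5:**
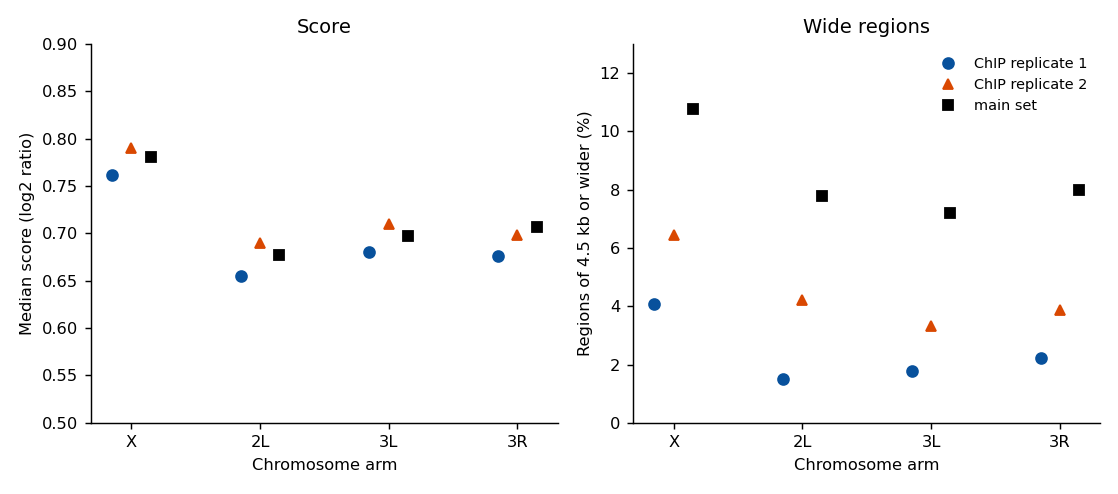
Median score (left, log2 ratio, axis from 0.5) and share of regions 4.5 kb or wider (right, %) on the X, 2L, 3L and 3R in each replicate list and the main set. In both panels the X lies above the other arms in both replicates and the main set.

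Since stronger regions were wider, the wide regions were also counted within quartiles of the score, with bounds set on the 4 arms together. In the highest quartile, 30 of 322 X regions of replicate 1 (9.32%) were 4.5 kb or wider, against 4.31% on 2L, 4.25% on 3L and 4.04% on 3R. In replicate 2 the share was 13.1% on the X, against 10.4%, 7.47% and 7.39%. Median widths in that quartile were 2664.5 bp on the X and 2636, 2583 and 2671 bp on 2L, 3L and 3R in replicate 1. In replicate 2 they were 2865 bp on the X and 2859, 2800 and 2830 bp on these arms. In the lowest quartile the X had the narrowest median. The median width there was 1704 bp on the X, against 1819, 1834.5 and 1798.5 bp on 2L, 3L and 3R in replicate 1, and 1719 bp, against 1817, 1851 and 1849 bp, in replicate 2. The middle quartiles had the narrower median on the X as well. In the second quartile it was 1957 bp on the X, against 2074, 2086.5 and 2085 bp in replicate 1, and 2053 bp, against 2161, 2127 and 2152 bp, in replicate 2. In the third it was 2227 bp on the X, against 2303, 2314 and 2337 bp in replicate 1, and 2370 bp, against 2435, 2525 and 2431.5 bp, in replicate 2. The share of very wide regions was lowest on the X in the second quartile, with 0 of 249 in replicate 1 and 4 of 295 (1.36%) in replicate 2. In the third quartile of replicate 1 it was 3.72% on the X, against 2.11% on 2L, 2.39% on 3L and 4.59% on 3R, and in that of replicate 2 it was 7.47%, against 6.07%, 4.26% and 7.10%. A larger share of very wide regions on the X than on each other arm, in both replicates, was thus seen in the highest quartile only. None of these differences was tested, and the counts of reads behind a region of given width are not known. The highest quartile has no upper bound on the score, and scores within it were not matched between the arms. Whether the larger share of very wide X regions in that quartile goes with higher scores was therefore not tested.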

How the data were processed

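NURF301 ChIP-seq of 2 ChIP replicates with 2 inputs was used as deposited, in 3 lists of enriched regions. Per the submitters' processing notes, Bowtie 0.12.7 was used, and per the file headers coordinates are on FlyBase r5. The caller of regions, its threshold and any rule for combining replicates were not given in the sources used here. The deposited score is a log2 value: 2 to the power of the score, divided by a constant for each list, gave whole-number ratios, searched up to a denominator of 3000, for 100% of the regions in each list (relative tolerance 2e-10), and for 1.27% at most with base e or 10. The lists give no library totals, so depth is unknown.

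Overlaps, windows of 500 kb (by region midpoint), gaps and clusters were computed in Python 3.11.15 with NumPy 2.4.6, pandas 2.3.3 and SciPy 1.17.1, and the steps were tested on simulated lists. Wilson intervals are at 95%. A region's replicate score is that of the region with the longest overlap. Named regions were the 10 strongest and 5 widest main regions, the 5 largest clusters and longest gaps, the extreme windows, the 5 most different pairs in each direction, and the 5 strongest regions outside the main set. Members, lists and thresholds were chosen with earlier results of these data known. The comparison of wide regions was added after the data were seen. Genes and sequences were not analysed here, since no genome or annotation of FlyBase r5 was used. Alternatives tried are in the closing section.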

Additional observations from a re-analysis of the deposited data

How the results depend on the processing

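Of 76 alternative values for 11 summaries of the X, 43 stayed within the spread between replicates (for the counts of regions within 1.5 times, for the shared percentages within the Wilson interval, for rho within 0.05) and 33 moved, with the cause not tested. The share of wide regions was added after seeing the data. The whole combined list moved 8: 1513 regions, median width 2235 bp, median score 0.55, 16.6% covered, a variance to mean ratio of 2.28, 45.1% in clusters, a longest gap of 185375 bp and 6.41% of regions 4.5 kb or wider. With the replicate 1 list the width was 2181.5 bp and the longest gap 335847 bp. With the replicate 2 list these were 2288 and 335667 bp, with a ratio of 2.38 and 37.1% in clusters. Keeping scores at or above each list's lower quartile gave 2801 bp, a score of 0.84, a longest gap of 338695 bp and 88.7% of replicate 1 regions shared. Merging regions closer than 500 bp gave a width of 2811 bp. A 50% reciprocal overlap gave 87.9% and 77.1% shared in replicates 1 and 2. Windows shifted by 250 kb gave a ratio of 2.56. Clusters with gaps of at most 2 kb held 9.07% of main regions and with 10 kb 51.4%, so the share in clusters depends on this bound.

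When only one replicate had to overlap, there were 948 regions (without replicate 2) or 1102 (without replicate 1), of median width 2503 to 2625 bp and score 0.70 to 0.75, covering 12.6% to 14.0%. The variance to mean ratio was then 1.75 to 2.27, and 29.7% to 38.7% lay in clusters; the longest gap was 335307 bp in both. After merging, 19.8% of main X regions were 4.5 kb or wider, against 13.9% on 2L, 14.2% on 3L and 15.0% on 3R, so the X kept the largest share. No paired analysis was possible because the inputs have no list and no result comes from a test between groups. Without totals, depth limits every score by an unknown amount.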
